A study of Mus musculus with 8 samples.

Results

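The 44 genes described here carry out or control mitosis. They were listed by symbol with earlier results of these data known, but no measured value entered the rule. Each symbol had exactly 1 row in a table of 17492 genes. All 44 passed the filter on low counts, among 11700 genes tested. The RNA was sequenced from macrophages that had been differentiated from C57BL/6 mouse bone marrow. The 4 control libraries came from cells in normal medium, and the other 4 from cells kept without serine and glycine, amino acids that feed nucleotide and one-carbon synthesis. No allele or further agent is named for either group. The labels give neither the time without serine and glycine nor whether the cells were stimulated. They also do not say that libraries came from separate cultures or animals, so p-values measure only the spread between these libraries, which may be technical.

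Mitosis is driven by the kinase Cdk1 bound to cyclins, and its end by the anaphase-promoting complex (APC/C), a ubiquitin ligase that marks cyclins and securin for destruction. Kinetochores tie chromosomes to spindle microtubules, kinesins move and sort those microtubules, and checkpoint proteins hold the APC/C back until every chromosome is attached. Most of these genes are transcribed in late S and G2 phase and are silent in resting cells, where the DREAM complex holds them down. Cultured marrow macrophages still divide while the growth factor CSF1 is present, and then carry mitotic transcripts.

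Without serine and glycine, the mitotic transcripts stood at nearly the level of the control cells, with small rises in part of the set. Summed over the 44 genes, control libraries 1 to 4 held 1450, 1456, 1457 and 1478 CPM (counts scaled to library size, with library sizes adjusted by the trimmed mean of M values), and serine/glycine-free libraries 1 to 4 held 1514, 1489, 1499 and 1490 CPM. The lowest serine/glycine-free library thus lay above the highest control library, by a margin that is small beside the level itself. In the test of all genes, 12 of the 44 rose, 2 fell and 30 did not pass an adjusted p of 0.05 (edgeR quasi-likelihood). Of all genes tested, 15.9% were called higher and 17.3% lower. Among the 8003 tested genes with a mean inside the range of the mitosis genes, 4.05 to 110.0 CPM, the shares were 15.6% and 14.6%, against 27.3% and 4.55% of the mitosis genes. By DESeq2, 7 mitosis genes (15.9%) were called higher and 2 lower, against 11.4% and 14.8% of all genes it tested. At an adjusted p under 0.01 in edgeR the counts were 7 and 2, against 10.6% and 13.1% of all genes. Whether these shares differ was not tested. The 2 falls lay in the kinesin and passenger scaffold groups, and chromosome structure held 1 gene lower at an unadjusted p of 0.05. The cyclin, kinase, checkpoint, kinetochore and non-motor spindle groups held 0 falls, also at that unadjusted p, by DESeq2 and by limma-voom. These groups were put together here because they held no fall, so their 0 follows from the choice and is no separate result. The median log2 change (serine/glycine-free over control) was 0.061 over the mitosis genes and 0.007 over all genes tested. In 10 mitosis genes every serine/glycine-free library exceeded every control library, and in 2 every one lay below, against 14.5% and 16.2% of all genes tested. The median size of the calls was 1.12-fold upward and 1.17-fold downward, against 1.15-fold over all called genes. The largest rise among the mitosis genes was that of Cdc25b, and the larger of the falls that of Kif11. In bulk RNA a change in the share of dividing cells and a change in RNA per dividing cell cannot be told apart.

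**Figure D1:**
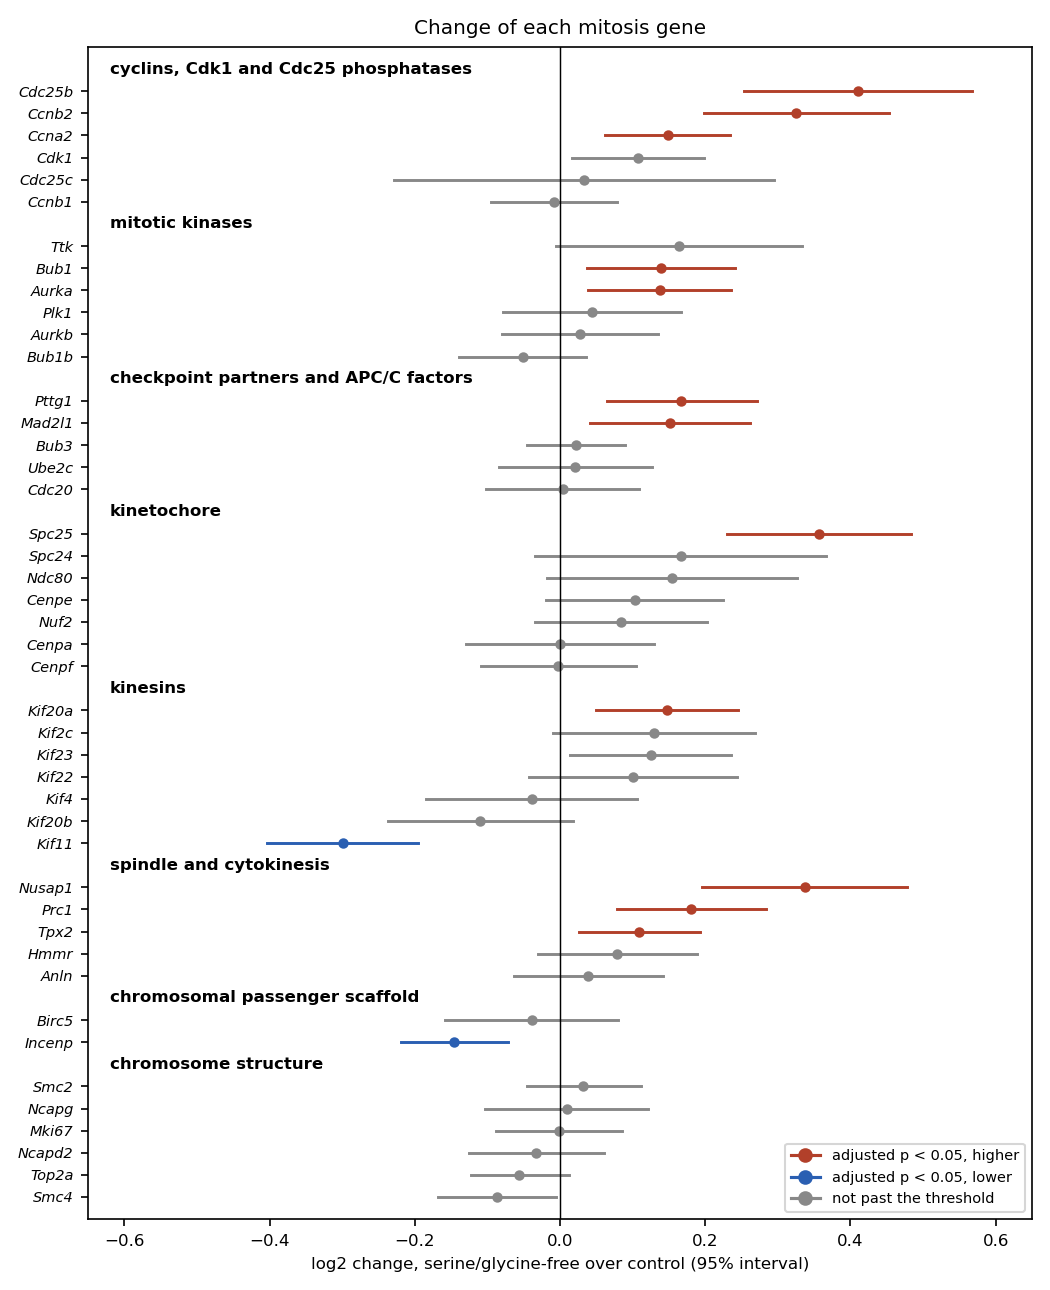
Log2 change of each mitosis gene, serine/glycine-free over control, with its 95% interval, 4 libraries against 4, grouped by role. The 12 genes past the threshold upward lie between 0.11 and 0.41, Kif11 and Incenp lie at -0.30 and -0.15, and the 6 chromosome structure genes lie close to 0.

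The promoters of these genes are known for a pair of short elements. The CHR, whose usual form is TTTGAA, is bound by the MuvB core of the DREAM and B-MYB complexes, and the CCAAT box is bound by the factor NF-Y. Both words were searched on both strands in RefSeq promoter entries of build GRCm38.p6, which run from 250 bases before to 50 after a transcript start. Matches of the 2 words can share at most 1 letter. Of the 44 genes, 36 had an entry, and Ccna2, Cdc25c, Aurkb, Spc24, Kif20a, Tpx2, Incenp and Smc4 are named only. TTTGAA stood in the entries of 27 of these 36 genes (75.0%), CCAAT in 27 (75.0%) and both in 23 (63.9%). Over all 27025 genes with an entry, the shares were 20.2%, 41.1% and 7.97%. Of the matched genes that rose, 4 of 9 held both words, and of those that did not pass the test, 18 of 26. A match is a run of letters and not a measured binding site.

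The 4 called rises that hold TTTGAA are shown with Kif11, a fall that was chosen for contrast after its values were seen. Each line runs 5′ to 3′ from 120 bases before to 30 after the transcript start, with each match of either word, on either strand, in capitals.
Spc25: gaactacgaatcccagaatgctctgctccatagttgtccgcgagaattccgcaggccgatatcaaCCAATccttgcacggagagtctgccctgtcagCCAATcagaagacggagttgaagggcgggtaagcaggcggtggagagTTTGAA
Ccnb2: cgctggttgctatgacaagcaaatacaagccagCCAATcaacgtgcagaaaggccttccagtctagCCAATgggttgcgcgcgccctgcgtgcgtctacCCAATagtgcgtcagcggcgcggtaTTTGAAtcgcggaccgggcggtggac
Prc1: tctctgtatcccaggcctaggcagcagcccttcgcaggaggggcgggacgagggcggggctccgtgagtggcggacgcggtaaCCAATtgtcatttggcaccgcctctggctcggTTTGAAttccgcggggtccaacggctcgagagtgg
Aurka: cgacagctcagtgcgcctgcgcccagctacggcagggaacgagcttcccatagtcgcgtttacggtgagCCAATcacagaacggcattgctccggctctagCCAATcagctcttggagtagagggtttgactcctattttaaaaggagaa
Kif11: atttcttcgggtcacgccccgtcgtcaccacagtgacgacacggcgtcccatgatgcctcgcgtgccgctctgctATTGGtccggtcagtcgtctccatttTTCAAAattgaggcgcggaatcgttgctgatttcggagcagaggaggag
On GRCm38.p6 these windows are chr2:69206184-69206333 (minus strand) for Spc25, chr9:70421525-70421674 (minus strand) for Ccnb2, chr7:80294331-80294480 (plus strand) for Prc1, chr2:172370541-172370690 (minus strand) for Aurka and chr19:37376262-37376411 (plus strand) for Kif11. Counted from the transcript start as position 1, Ccnb2 held CCAAT at -87, -54 and -21 and TTTGAA at 5, with a further TTTGAA at -167 outside the window. Spc25 held CCAAT at -55 and -23 and TTTGAA at 25. Prc1 held CCAAT at -37 and TTTGAA at -5 in the printed entry, the first of its 2, and at -62 and -30 in the other. Aurka held CCAAT at -51 and -19, and its TTTGAA began at 33, beyond the printed window. Kif11, which fell, held both words on the opposite strand, at -45 and -19. A promoter with both words was thus found on both sides of the comparison.

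For the counts by role that follow, the shares of all genes tested were 15.9% higher and 17.3% lower by edgeR. Among the cyclins, Cdk1 and its activating phosphatases, 3 of 6 genes rose and none fell. Cdc25b, the phosphatase that starts Cdk1 activation at the centrosome, had 10.2, 10.3, 9.14 and 9.34 CPM in control libraries 1 to 4. Without serine and glycine it had 12.8, 11.6, 13.6 and 13.8 CPM, so that every serine/glycine-free library lay above every control library (adjusted p = 4.15e-05, log2 change 0.41 with SE 0.078). Ccnb2, a B-type cyclin, held 16.5, 19.1, 16.5 and 17.6 CPM in the controls and 22.3, 23.6, 21.5 and 19.8 CPM without serine and glycine (adjusted p = 5.81e-05, log2 change 0.33 with SE 0.063). The groups did not overlap for Ccnb2, and control replicate 2 was the highest of its group. Ccna2, the cyclin of S phase and early mitosis, held 44.9, 45.7, 41.7 and 42.8 CPM in the controls and 48.5, 47.9, 49.9 and 47.6 CPM without serine and glycine, again with no overlap (adjusted p = 0.0055, log2 change 0.15 with SE 0.043). The other B-type cyclin, Ccnb1, held 43.7, 43.0, 42.9 and 43.9 CPM in the controls and 45.0, 41.6, 44.05 and 41.8 CPM without serine and glycine, and the ranges overlapped. Its log2 change was -0.009 (95% interval -0.10 to 0.078, adjusted p = 0.909). Within libraries, the ratio of Ccnb2 to Ccnb1 CPM was 0.377, 0.444, 0.384 and 0.401 in the controls and 0.496, 0.568, 0.488 and 0.474 without serine and glycine. Cdk1 itself, the kinase, had 36.2, 36.8, 35.3 and 37.6 CPM in the controls and 40.2, 37.8, 40.1 and 39.0 CPM without serine and glycine. Although its groups did not overlap, its change of 0.11 (95% interval 0.017 to 0.20, adjusted p = 0.0607) did not pass, except when the fit left out serine/glycine-free replicate 2 (adjusted p = 0.0412) and, with all libraries, on scaling by library size alone (0.12, adjusted p = 0.0421) or among genes of at least 5 CPM (0.11, adjusted p = 0.0493). Cdc25c, a further phosphatase of Cdk1, was the gene with the lowest CPM of the set, and its change of 0.033 (95% interval -0.23 to 0.29, adjusted p = 0.88) was the least well determined. Summed over the 6 genes, CPM ranged over 150.2 to 159 CPM in the control libraries and 166 to 173 CPM without serine and glycine. Ccna2 had non-whole estimated counts in all 8 libraries and shares exon sequence on the opposite strand with Exosc9, and Cdc25b with Spef1. Whether counting used strand is not given in the sources used here, so reads of such pairs cannot be told apart. Cdc25b (Entrez 12531) lies on chromosome 2 at 131186436 to 131198511, and Ccnb2 (Entrez 12442) lies on chromosome 9 at 70407689 to 70421554.

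Of the 6 mitotic kinases, Aurka and Bub1 rose by small amounts and the other 4 did not pass. Aurka, the kinase of centrosomes and spindle poles, held 31.6, 29.8, 29.2 and 30.7 CPM in the controls and 31.3, 34.5, 34.1 and 33.5 CPM without serine and glycine (adjusted p = 0.0265, log2 change 0.14 with SE 0.049). Serine/glycine-free replicate 1 lay below control replicate 1, so the groups overlapped. Aurka no longer passed when the fit left out serine/glycine-free replicate 2 (adjusted p = 0.0792), serine/glycine-free replicate 3 (adjusted p = 0.0754), control replicate 2 (adjusted p = 0.0686) or control replicate 3 (adjusted p = 0.0907). Nor did it pass after a gene-length correction, in which the smooth relation of change to gene length was taken out of every library (0.11, adjusted p = 0.0632). Bub1, a checkpoint kinase that also marks centromeric histone H2A, held 27.6, 32.3, 31.02 and 30.9 CPM in the controls and 34.6, 32.1, 33.9 and 33.5 CPM without serine and glycine (adjusted p = 0.0298, log2 change 0.14 with SE 0.051). Its ranges overlapped through control replicate 2, and it no longer passed when the fit left out serine/glycine-free replicate 1 (adjusted p = 0.0818), serine/glycine-free replicate 3 (adjusted p = 0.0707) or control replicate 1 (adjusted p = 0.171). Plk1, which drives mitotic entry and centrosome maturation, held 19.7, 17.8, 17.5 and 17.8 CPM in the controls and 19.2, 18.7, 17.7 and 19.4 CPM without serine and glycine, and its log2 change was 0.044 (95% interval -0.079 to 0.17, adjusted p = 0.63). Aurkb, the kinase of the chromosomal passenger complex, stood at 0.027 (95% interval -0.080 to 0.14, adjusted p = 0.74). Bub1b, which encodes the checkpoint protein BubR1, stood at -0.051 (95% interval -0.14 to 0.036, adjusted p = 0.394), the only kinase of the 6 with a value below 0. Ttk, the kinase Mps1 that starts checkpoint signalling, stood at 0.16 (95% interval -0.005 to 0.33, adjusted p = 0.133), and it passed when the fit left out control replicate 4 (adjusted p = 0.0461). The summed CPM of the 6 kinases covered 158 to 163 CPM in the control libraries and 165 to 170.0 CPM without serine and glycine.

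The checkpoint partners and APC/C factors held the genes with the highest levels per length, and 2 of the 5 rose. In TPM, which is scaled for transcript length, Pttg1, Bub3 and Ube2c were the first of the 44 genes, with means of 116, 91.6 and 87.3 TPM over the 8 libraries. The ranges of Bub3 (88.1 to 95.5 TPM) and Ube2c (80.5 to 99.3 TPM) overlapped, so their order is not set. Pttg1, which encodes securin, the inhibitor of separase, had 35.2, 36.0, 35.5 and 34.5 CPM in the controls and 37.6, 36.7, 39.6 and 44.9 CPM without serine and glycine (adjusted p = 0.00968, log2 change 0.17 with SE 0.051). Serine/glycine-free replicate 4 stood far above the other 3, and Pttg1 no longer passed when the fit left out serine/glycine-free replicate 4 (adjusted p = 0.0946). Nor did it pass after the gene-length correction (0.076, adjusted p = 0.207), Pttg1 being the shortest of the mitosis genes at an effective length of 583 bases. Mad2l1, which encodes the checkpoint protein MAD2 that binds CDC20, held 27.2, 27.7, 23.7 and 27.3 CPM in the controls and 30.9, 27.2, 29.9 and 29.7 CPM without serine and glycine (adjusted p = 0.0285, log2 change 0.15 with SE 0.055). Control replicate 3 was its lowest library and the groups overlapped. Mad2l1 no longer passed when the fit left out serine/glycine-free replicate 1 (adjusted p = 0.094), serine/glycine-free replicate 3 (adjusted p = 0.0717) or control replicate 3 (adjusted p = 0.179), nor after the gene-length correction (0.12, adjusted p = 0.0819). Cdc20, the APC/C activator that the checkpoint inhibits, held 25.8, 25.9, 27.6 and 24.9 CPM in the controls and 25.1, 26.2, 26.4 and 26.9 CPM without serine and glycine. The ranges of Cdc20 overlapped, and its log2 change was 0.004 (95% interval -0.10 to 0.11, adjusted p = 0.969). Bub3, the partner of Bub1 and BubR1, stood at 0.022 (95% interval -0.045 to 0.090, adjusted p = 0.658). Ube2c, the ubiquitin-conjugating enzyme that works with the APC/C, stood at 0.021 (95% interval -0.084 to 0.13, adjusted p = 0.799), and it shares exon sequence on the opposite strand with Tnnc2.

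At the kinetochore, Spc25 rose and the other 6 genes did not pass. Spc25 is 1 of the 4 subunits of the Ndc80 complex, which binds microtubule ends. It held 14.98, 15.3, 15.5 and 13.7 CPM in the controls and 18.9, 19.2, 18.3 and 19.7 CPM without serine and glycine, with a wide gap between the groups (adjusted p = 1.25e-05, log2 change 0.36 with SE 0.063). Its partner at the inner end of the complex, Spc24, had 6.93, 6.01, 5.55 and 6.86 CPM in the controls and 6.36, 7.10, 7.41 and 7.60 CPM without serine and glycine. The ranges of Spc24 overlapped, its change was 0.17 (95% interval -0.034 to 0.37, adjusted p = 0.203), and its counts were not whole in 4 libraries. Ndc80, which makes the microtubule contact together with Nuf2, stood at 0.15 (95% interval -0.018 to 0.33, adjusted p = 0.167), and Nuf2 at 0.084 (95% interval -0.035 to 0.20, adjusted p = 0.288). All 4 values of the complex were above 0, but 3 of the 4 intervals reached below it. Cenpa, the histone H3 variant that marks centromeres, had 15.7, 17.0, 15.03 and 16.1 CPM in the controls and 16.3, 16.0, 15.4 and 16.1 CPM without serine and glycine, with a 95% interval of the change from -0.13 to 0.13 (adjusted p = 0.997). Cenpf, a large outer kinetochore protein, stood at -0.003 (95% interval -0.11 to 0.10, adjusted p = 0.978). Cenpe, a kinesin that carries chromosomes to the spindle equator, stood at 0.10 (95% interval -0.019 to 0.23, adjusted p = 0.192), with serine/glycine-free replicate 1 the highest library at 40.8 CPM. Cenpe passed after the gene-length correction (0.17, adjusted p = 0.00585), at an effective length of 7666 bases. Spc25 (Entrez 66442) lies on chromosome 2 at 69193895 to 69206213.

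Of the 7 kinesins, Kif11 fell, Kif20a rose by a small amount and the other 5 did not pass. Kif11 encodes Eg5, the motor that pushes the spindle poles apart, and it had 32.4, 32.8, 32.4 and 36.0 CPM in control libraries 1 to 4. Without serine and glycine it had 26.1, 29.2, 26.7 and 26.6 CPM, every library lower than every control (adjusted p = 8.52e-06, log2 change -0.30 with SE 0.052). It was the clearest fall among the mitosis genes, and control replicate 4 was the highest library. Kif20a, a motor of the central spindle in cytokinesis, held 34.4, 31.1, 32.8 and 32.5 CPM in the controls and 34.98, 38.4, 34.4 and 37.0 CPM without serine and glycine (adjusted p = 0.0167, log2 change 0.15 with SE 0.049). Its ranges overlapped slightly, and Kif20a did not pass by DESeq2 and no longer passed when the fit left out serine/glycine-free replicate 2 (adjusted p = 0.0814) or control replicate 2 (adjusted p = 0.0769). Kif20a counts were not whole in any of the 8 libraries, and the gene shares exon sequence on the opposite strand with Cdc23, so its level is uncertain to that extent. Kif23, the motor of centralspindlin, had no overlap between groups, with 23.8, 22.1, 22.0 and 21.0 CPM in the controls and 24.0, 23.9, 24.2 and 25.0 CPM without serine and glycine. Its change of 0.12 (95% interval 0.014 to 0.24, adjusted p = 0.0762) did not pass, but it did when the fit left out control replicate 1 (adjusted p = 0.0357) and after the gene-length correction (0.13, adjusted p = 0.0484). Kif2c, a microtubule depolymerase, stood at 0.13 (95% interval -0.010 to 0.27, adjusted p = 0.15), and Kif22, a chromosome-bound kinesin, at 0.10 (95% interval -0.043 to 0.24, adjusted p = 0.295). Kif4, another chromosome-bound kinesin, stood at -0.039 (95% interval -0.18 to 0.11, adjusted p = 0.722), and Kif20b, a kinesin of late cytokinesis, at -0.11 (95% interval -0.24 to 0.018, adjusted p = 0.186). Kif4 shares exon sequence on the opposite strand with Pdzd11. The summed CPM of the 7 kinesins overlapped between the groups, with 149 to 154 CPM in the control libraries and 148 to 156 CPM without serine and glycine. Kif11 (Entrez 16551) lies on chromosome 19 at 37376382 to 37421863.

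Of the spindle and cytokinesis factors that are not motors, 3 of 5 rose. Nusap1, which bundles spindle microtubules near chromosomes, held 12.5, 12.7, 13.7 and 11.5 CPM in the controls and 16.1, 14.8, 15.9 and 17.0 CPM without serine and glycine, with no overlap (adjusted p = 1.48e-04, log2 change 0.34 with SE 0.070). Prc1, which crosslinks antiparallel microtubules in the spindle midzone, held 26.0, 25.6, 27.4 and 27.6 CPM in the controls and 31.4, 30.1, 29.5 and 29.7 CPM without serine and glycine, again with no overlap (adjusted p = 0.00416, log2 change 0.18 with SE 0.050). Nusap1 shares exon sequence on the opposite strand with Oip5, and Prc1 with Rccd1. Tpx2, the spindle factor that activates Aurora A, held 45.9, 44.5, 46.4 and 47.6 CPM in the controls and 50.0, 49.1, 51.4 and 48.5 CPM without serine and glycine (adjusted p = 0.0368, log2 change 0.11 with SE 0.041). Its groups did not overlap, but it no longer passed when the fit left out serine/glycine-free replicate 1 (adjusted p = 0.0643), serine/glycine-free replicate 3 (adjusted p = 0.123), control replicate 1 (adjusted p = 0.0712), control replicate 2 (adjusted p = 0.123) or control replicate 3 (adjusted p = 0.0597), nor with the replicate number as a block (0.11, adjusted p = 0.0579). Anln, a scaffold of the contractile ring, stood at 0.039 (95% interval -0.063 to 0.14, adjusted p = 0.6), and Hmmr, a spindle protein, at 0.079 (95% interval -0.031 to 0.19, adjusted p = 0.279). Summed CPM of the 5 ran over 133 to 140.3 CPM in the control libraries and 147 to 151 CPM without serine and glycine. Nusap1 (Entrez 108907) lies on chromosome 2 at 119618298 to 119650165.

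**Figure D2:**
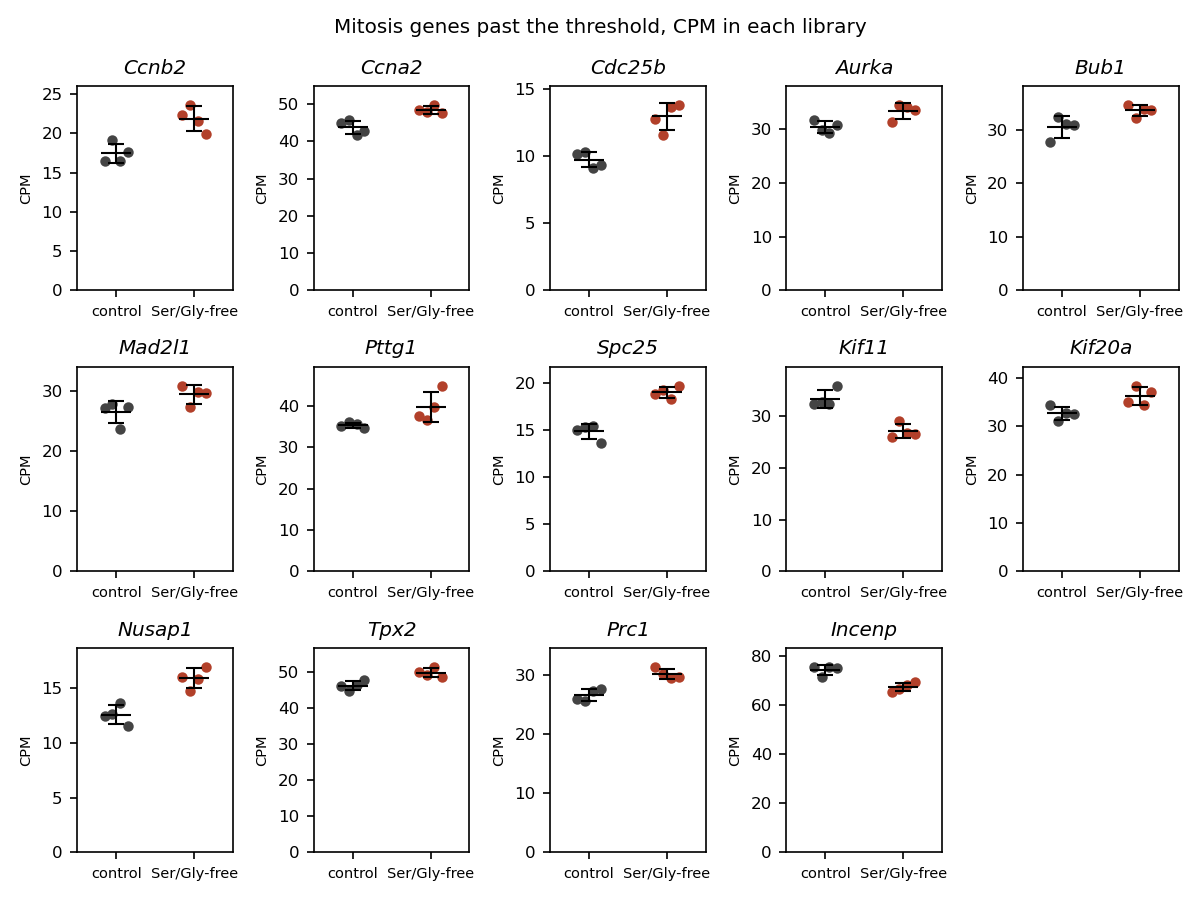
CPM of the 14 mitosis genes past the threshold, 1 point per library, with the mean and SD of each group of 4 (Ser/Gly-free, without serine and glycine). Cdc25b, Spc25 and Nusap1 are clearly separated upward and Kif11 downward. The groups of Ccnb2 are separated only narrowly (highest control 19.1, lowest serine/glycine-free library 19.8 CPM). The points of Aurka, Bub1, Mad2l1 and Kif20a overlap between the groups.

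Of the chromosomal passenger scaffold, Incenp fell and Birc5 did not pass. Incenp, which holds Aurora B and survivin together, had 75.7, 71.4, 75.5 and 75.2 CPM in the controls and 65.4, 66.5, 68.0 and 69.3 CPM without serine and glycine, with no overlap (adjusted p = 0.00148, log2 change -0.15 with SE 0.036). Its call held in each of the 8 fits with 1 library left out. Birc5, which encodes survivin, held 21.3, 20.6, 19.9 and 20.1 CPM in the controls and 18.1, 19.8, 20.6 and 21.1 CPM without serine and glycine, with overlapping ranges, and its log2 change was -0.039 (95% interval -0.16 to 0.080, adjusted p = 0.659). Of Aurkb, Incenp and Birc5, which encode 3 proteins of the passenger complex, 1 thus changed. Incenp (Entrez 16319) lies on chromosome 19 at 9872295 to 9899489.

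None of the 6 chromosome structure genes passed by edgeR, and DESeq2 and limma-voom called 0 and 0. Of the 6, 1 gene, Smc4, was lower at an unadjusted p of 0.05. Mki67, which encodes the proliferation marker Ki-67 that coats mitotic chromosomes, had 103, 103, 114 and 116 CPM in the controls and 116, 111, 107 and 102 CPM without serine and glycine. The ranges of Mki67 coincided closely, and its log2 change was -0.001 (95% interval -0.088 to 0.086, adjusted p = 0.99). After the gene-length correction, Mki67 stood at 0.080, adjusted p = 0.0326, so its sign and call depend on that step. Its effective length of 9276 bases was exceeded only by that of Cenpf (10350) among the mitosis genes. Top2a, the topoisomerase that untangles sister chromatids, held 109.5, 108, 115 and 116 CPM in the controls and 112, 105, 109.9 and 105 CPM without serine and glycine, with a change of -0.056 (95% interval -0.12 to 0.012, adjusted p = 0.206). Smc2 and Smc4, the ATPase pair of condensin, stood at 0.032 (95% interval -0.046 to 0.11, adjusted p = 0.57) and -0.087 (95% interval -0.17 to -0.005, adjusted p = 0.097). Smc4 passed when the fit left out control replicate 4 (adjusted p = 0.0213). The condensin I subunits Ncapd2 and Ncapg stood at -0.033 (95% interval -0.13 to 0.060, adjusted p = 0.633) and 0.009 (95% interval -0.10 to 0.12, adjusted p = 0.929), and Ncapg counts were not whole in any library. Summed over the 6 genes, CPM covered 398 to 423 CPM in the control libraries and 390.2 to 419.6 CPM without serine and glycine, with overlap.

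**Figure D3:**
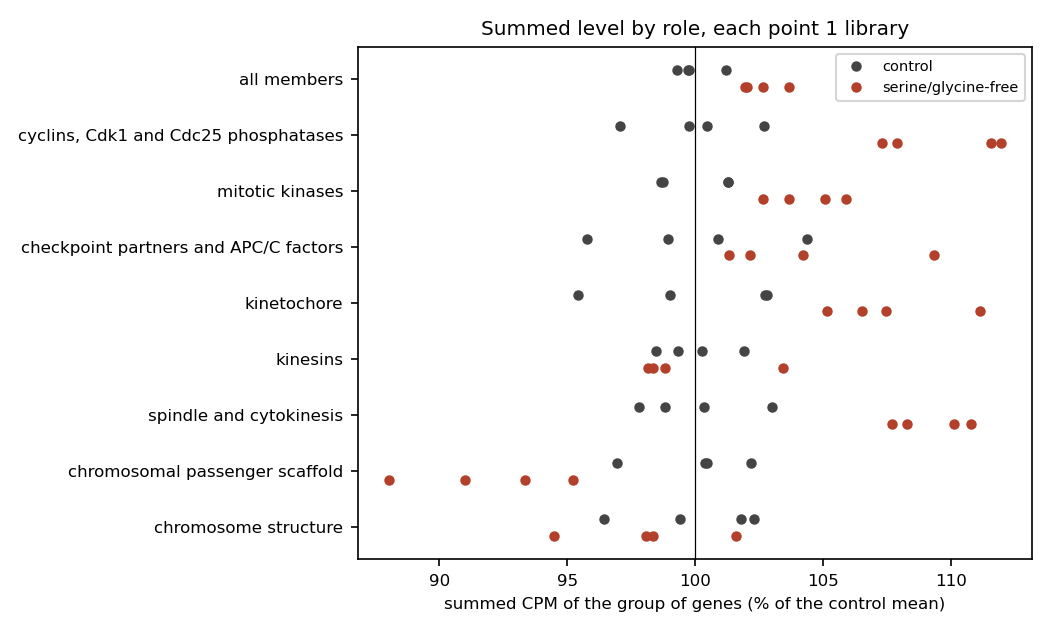
Summed CPM of the mitosis genes by role, as a percentage of the control mean, 1 point per library. Cyclins, kinases, kinetochore and spindle factors lie above the controls in all 4 serine/glycine-free libraries, the passenger scaffold lies below, and kinesins, checkpoint factors and chromosome structure overlap.

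The median deviation of the 44 genes from their group mean lay between -0.005 and 0.017 on the log2 scale over the 8 libraries. Serine/glycine-free replicate 4 held the highest value of its group for 15 genes and the lowest for 9. Control replicate 3 held the lowest value for 18 genes and the highest for 9. Of the 14 calls, 8 held whichever library was left out: Cdc25b, Ccnb2, Ccna2, Spc25, Nusap1 and Prc1 upward, and Kif11 and Incenp downward. DESeq2, run on the same counts, called 9 of the 14, which added Pttg1 to these 8. The libraries held 17565291 to 18201599 estimated counts in all. Every mitosis gene had at least 57 counts in every library, and the widest intervals were those of Cdc25c, Spc24, Ndc80, Ttk and Cdc25b.

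The labelled cell type was checked against marker genes. All 8 macrophage markers were present, with a summed level of 18480 to 18960 CPM in the control libraries and 18530 to 18820 CPM without serine and glycine. Markers of other cells that could divide in marrow cultures were low. The 6 haematopoietic progenitor markers, of which Flt3 and Gata2 were at 0 in some libraries, summed to 2.97 to 3.25 CPM in the control libraries and 3.16 to 4.57 CPM without serine and glycine. Of these, Cd34, with 5 to 17 counts per library, rose from 0.419 ± 0.0968 to 0.838 ± 0.157 CPM (SD, n = 4; adjusted p = 0.012). Myb (adjusted p = 0.194) and Sox4 (adjusted p = 0.765) did not pass, and Kit had 1 to 6 counts per library. The 8 neutrophil markers summed to 0.772 to 1.17 CPM in the control libraries and 2.05 to 2.39 CPM without serine and glycine, most of it S100a8, while Ly6g, Elane and Camp were at 0 in every control library. The 5 erythroid markers in the table summed to at most 0.393 CPM in any library, the 6 of fibroblasts and stroma to 1.94, the 4 of T and NK cells to 0.611 and the 2 of mast cells to 0.111. Of the B cell markers, Cd79b, a chain of the B cell receptor complex, fell, from a range of 42.6 to 50.1 CPM in the controls to one of 31.2 to 38.3 CPM without serine and glycine (adjusted p = 3.58e-07), while Ms4a1 and Pax5 each had 1 to 7 counts per library. The part of such cells in the changes of the mitosis genes was not tested.

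Other cell-cycle genes were described from the same fit for comparison, by counts and medians and with no set test. For all the lists that follow, the shares of all genes tested were 15.9% higher and 17.3% lower by edgeR. By DESeq2 they were 11.4% and 14.8%. Of the other genes of G2 and mitosis, 7 of 43 tested genes rose and 3 fell (median log2 change 0.063). The rises numbered 4 without serine/glycine-free replicate 3 or 4 or without control replicate 1 or 3, and 3 by DESeq2. Psrc1, a spindle protein, fell (-0.35, adjusted p = 2.54e-09), and the kinase gene Pbk rose (0.25, adjusted p = 3.27e-04). Of further kinetochore and centromere genes, 1 of 26 tested genes rose and 2 fell (median log2 change 0.035). The rise, of the centromere gene Cenph (0.33, adjusted p = 0.0318), held in only 2 of the 8 fits with 1 library left out. It was lost when the fit left out serine/glycine-free replicate 1 (adjusted p = 0.13), serine/glycine-free replicate 3 (adjusted p = 0.0716), serine/glycine-free replicate 4 (adjusted p = 0.0577), control replicate 2 (adjusted p = 0.0546), control replicate 3 (adjusted p = 0.0838) or control replicate 4 (adjusted p = 0.0788), by DESeq2 (0.32, adjusted p = 0.115) and after the gene-length correction (0.27, adjusted p = 0.0745). Zw10, of the complex that recruits dynein, fell (-0.16, adjusted p = 0.00343), as did Knl1, the scaffold for Bub1 and Bub3 (-0.21, adjusted p = 0.00547), though not after the gene-length correction (-0.15, adjusted p = 0.0526). Among other condensin and cohesin genes, 2 of 16 tested genes rose and 3 fell (median log2 change 0.000). After the gene-length correction 4 rose and 1 fell, so the balance of the list depends on that step. Esco2, which acetylates cohesin in S phase, rose (0.29, adjusted p = 0.00415). Top2b, a topoisomerase also used outside mitosis, fell (-0.12, adjusted p = 0.00592), but not after the gene-length correction (-0.071, adjusted p = 0.0649), and Smc3, a cohesin ATPase, fell (-0.13, adjusted p = 0.00814). Among APC/C core subunits with Fzr1 and Ube2s, 1 of 16 tested genes rose and 3 fell (median log2 change -0.030). Ube2s, the enzyme that extends ubiquitin chains for the APC/C, fell (-0.15, adjusted p = 7.78e-05), and the subunit gene Anapc11 rose (0.16, adjusted p = 0.00113). Of 13 mitotic entry and exit switches, 2 rose and 0 fell by edgeR, with 0 lower at an unadjusted p of 0.05, by DESeq2 and by limma-voom (median log2 change 0.048), and Arpp19, an inhibitor of the phosphatase PP2A-B55, was the clearer rise (0.28, adjusted p = 4.33e-05). With 1 library left out, the condensin and cohesin rises numbered 1 without serine/glycine-free replicate 1 or control replicate 2 or 3. Those of the entry and exit switches numbered 1 without serine/glycine-free replicate 1 or 2 or control replicate 2, 3 or 4, and those of the APC/C list reached up to 3.

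Among factors that control transcription of the mitosis genes, 3 of 18 tested genes rose and 2 fell (median log2 change 0.010). Mybl2, which encodes the activator B-MYB, fell (-0.22, adjusted p = 4.21e-04), and so did Rbl2, which encodes p130 of the repressive DREAM complex (-0.17, adjusted p = 1.14e-04). Nfya, a subunit of the CCAAT-binding factor, rose (0.13, adjusted p = 4.51e-04). Foxm1, an activator of late cell-cycle genes that was chosen after its values were seen, stood at -0.078, adjusted p = 0.314. Of G1 cyclins, their kinases and CDK inhibitors, 5 of 18 tested genes rose and 4 fell (median log2 change 0.069). Ccnd3, which encodes cyclin D3, fell (-0.39, adjusted p = 1.44e-14), as did the CDK inhibitor gene Cdkn1a (-0.27, adjusted p = 3.03e-13), from 825 ± 12.4 to 684 ± 9.08 CPM (SD, n = 4). Some of the other CDK inhibitor genes of the list rose: Cdkn2c (0.51, adjusted p = 3.97e-04), Cdkn2d (0.36, adjusted p = 0.00193) and Cdkn1c (0.50, adjusted p = 0.00301), the last named after its values were seen. Of these, Cdkn2c went from 4.44 ± 0.633 to 6.33 ± 0.722 CPM. Of 24 replication genes, 9 rose and 0 fell by edgeR (median log2 change 0.064), with 1 lower at an unadjusted p of 0.05 and 0 by DESeq2 and limma-voom. Among them were Cdt1, which licenses origins (0.42, adjusted p = 9.19e-11), and Pcna, the polymerase clamp (0.26, adjusted p = 1.03e-10). The median of the mitosis genes, 0.061, lay beside that of the replication genes and of the other G2 and mitosis genes. It also lay beside that of the G1 list (0.069), which held both rises and falls. Summed CPM of the replication genes ran over 1293 to 1329 CPM in the control libraries and 1405 to 1424 CPM without serine and glycine, a wider gap than that of the mitosis genes.

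**Figure D4:**
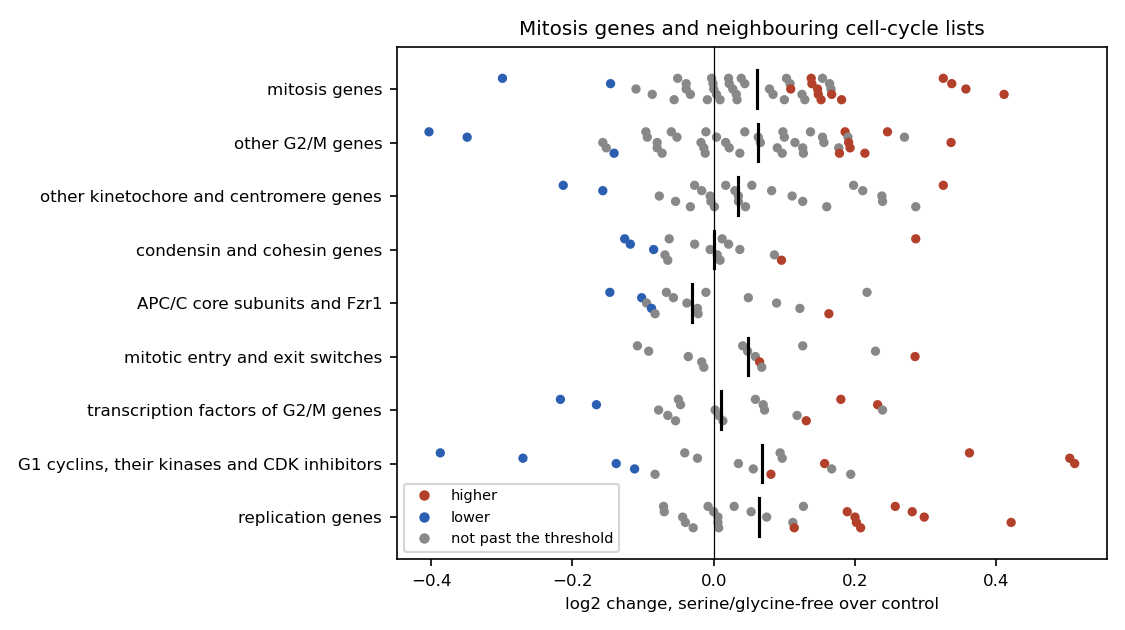
Log2 change of each tested gene, serine/glycine-free over control, for the mitosis genes and 8 further cell-cycle lists, with the median of each list as a black bar. Medians lie between -0.030 and 0.069, and called genes lie on both sides of 0 except for replication genes and entry and exit switches, which hold called rises only.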

How the data were processed

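Estimated counts, FPKM and TPM per gene and library were deposited by the authors in 1 table. The submitters' processing notes list BWA, Bowtie2, RSEM and the build GRCm38.p6, without tool versions. Per the labels' protocols, Trizol was used for extraction and oligo-dT beads for selection of polyadenylated RNA. The deposited estimated counts, 8.06% to 8.47% of them not whole at a tolerance of 1e-06, were rounded for the tests. The authors' FPKM values gave each gene's effective length, and the authors' TPM values served to compare levels between genes. The authors' 6 group-average columns were left out.

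Genes were filtered (minimum count 10, minimum total 15), scaled by TMM and tested under R 4.3.3 with the robust quasi-likelihood F test of edgeR 4.0.16, 4 libraries against 4, with Benjamini-Hochberg adjustment over all genes tested and a threshold of 0.05. SE was derived from the F statistic, and intervals use its degrees of freedom. DESeq2 1.42.0, limma-voom (3.58.1), other scalings and filters, a replicate block, left-out libraries and a gene-length correction (a smooth trend of log ratio on effective length, subtracted per library) were alternatives. The main test and the gene-length correction were tried on simulated counts with changes of at least 1.2-fold, so smaller changes were not covered. All 12 pairs of libraries within a group differed by more than sampling noise (chi-square per degree of freedom 1.42 to 3.6).

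The mitosis genes, their roles and the other lists were chosen with earlier results of these data known. All mitosis genes are named. Of each other list up to 4 genes with the smallest adjusted p could be named, and 1 to 4 were. Cdkn1c and Foxm1 were named outside this rule, after their values were seen. Marker lists are given by their sums, except that the B cell list is given by single genes because 1 of its genes is not reported here. Coordinates come from an annotation of the same build. Positions in promoters come from RefSeq entries.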

Additional observations from a re-analysis of the deposited data

Results flagged for a closer look

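In each group of 4 libraries, a value far from the other 3 was looked for in all 44 mitosis genes (Dixon's criterion on the gap to the nearest value). Of 88 groups, 7 held such a value, where chance gives about 1 in 20. In control replicate 1, Plk1 stood at 19.7 CPM, above 17.8 CPM in the next library. In serine/glycine-free replicate 4, Bub3 stood at 102 CPM, above 98.0. In control replicate 3, Mad2l1 at 23.7 CPM and Anln at 25.1 CPM lay below their next values of 27.2 and 26.3 CPM. In control replicate 4, Kif11 at 36.0 CPM and Hmmr at 27.2 CPM lay above 32.8 and 24.1 CPM. In control replicate 2, Incenp at 71.4 CPM lay below 75.2 CPM. Mad2l1 lost its call without the library concerned, whereas Kif11 and Incenp kept theirs.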

How the results depend on the processing

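The count of mitosis genes that rose, 12 by edgeR, was 7 with DESeq2, 7 at an adjusted p under 0.01 and 4 at a change of at least 1.2-fold. The falls numbered 2 in these settings except for 1 at 1.2-fold or more. At that size, 816 of all genes were called higher and 584 lower. Leaving out 1 library gave 8 to 13 rises, the fewest without serine/glycine-free replicate 3, and 2 to 3 falls. The median log2 change stayed between 0.046 and 0.081 over the alternatives that refit it. Mki67 changed sign after the gene-length correction, to 0.080, and no other mitosis gene did so with a call on either side. The cause was not tested. Same-numbered libraries did not deviate together (correlations -0.050, 0.046, 0.051 and -0.11 over genes). Paired samples could also deviate independently, so these values cannot decide whether the numbers pair the samples. A fit with the replicate block called 11 mitosis genes higher and 2 lower. Tpx2 lost its call there. DESeq2 did not call Aurka, Bub1, Mad2l1, Kif20a and Tpx2, and without the filter on low counts Aurka (adjusted p = 0.0515) and Tpx2 (adjusted p = 0.0833) did not pass.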

Other observations

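The positions of the mitosis genes that rose were counted after their values were seen, and the counts were not tested. Of the 8 mitosis genes on chromosome 2, 6 rose: Cdc25b, Spc25, Nusap1, Tpx2, Aurka and Bub1. Bub1b and Ube2c, on the same chromosome, did not pass. Of the 36 mitosis genes on other chromosomes, 6 rose. Of all 955 genes tested on chromosome 2, 14.2% were called higher, against 15.9% over the whole table. Calls of 3 of the 6, Tpx2, Aurka and Bub1, were lost when single libraries were left out.

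A further feature of the promoters was counted after seeing the sequences. The printed promoters of Spc25, Ccnb2 and Aurka hold it and are among those counted, so the shares do not test it. In 7 of 36 mitosis genes with an entry (19.4%), a pair of CCAAT words on the same strand began 31 to 33 bases apart: Aurka, Ccnb1, Ccnb2, Cdk1, Hmmr, Spc25 and Ube2c. Over all genes with an entry the share was 0.918%. Among genes with 2 or more CCAAT words, the shares were 38.9% of 18 mitosis genes and 6.92% of 3585 genes. Of the 7, Ccnb2, Spc25 and Aurka rose, and Ccnb1, Cdk1, Hmmr and Ube2c did not pass.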
